A study of Mus musculus with 12 samples.

Results

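The Toll-like receptors of sorted mouse B cells were followed together with Unc93b1, the chaperone that carries several of them to endosomes, and Myd88, the adaptor that most of them signal through. The members were Tlr1, Tlr2, Tlr3, Tlr4, Tlr6, Tlr7, Tlr9, Tlr12, Myd88 and Unc93b1, each taken through every probe set of the array that carried its symbol alone. These 10 genes had 17 probe sets of 45037 in the table, where 18193 genes had at least 1 probe set of a single symbol. RNA came from 4 groups of B cells of female C57BL/6 mice, with 3 arrays a group: age-associated B cells (old ABC) from the spleen, B1 cells from the peritoneal cavity at the same age (old B1), B1 cells of young mice from the same cavity (young B1), and follicular B cells from the spleen (old FO). The mice of the 3 old groups were older than 15 months and those of the young group were 8 weeks old. The sample titles call the peritoneal cells B1a. No group carried a treatment or a transgene, and the cells were sorted by flow cytometry without culture. The surface markers of the sort are not stated in the labels, nor is it stated whether replicates are separate mice or pools, so the p-values cover no more than the variation between these arrays. Organ and cell type cannot be told apart where B1 cells are set against a spleen group.

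Toll-like receptors are membrane proteins that recognise conserved microbial molecules. Tlr1, Tlr2, Tlr4 and Tlr6 sit at the cell surface, where Tlr2 pairs with Tlr1 or Tlr6 to bind bacterial lipopeptides and Tlr4 binds lipopolysaccharide with its partner Ly96. Tlr3, Tlr7, Tlr9 and Tlr12 act inside endosomes on double-stranded RNA, single-stranded RNA, DNA with unmethylated CpG and, for mouse Tlr12, profilin of Toxoplasma. Unc93b1 escorts the endosomal receptors out of the endoplasmic reticulum, and Myd88 links all of these receptors except Tlr3 to kinases that activate NF-kappa B. B cells are known to respond directly to ligands of Tlr7 and Tlr9.

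Values are log2 of the deposited intensity. Levels are compared between groups for 1 probe set at a time, since the brightness of different probe sets cannot be compared. Where a gene had several probe sets, the brightest on average stands for it, and a difference was called at a limma adjusted p under 0.05, with the adjustment over all 45037 probe sets. The sign ± gives the limma standard error of a log2 difference, from a spread shared by all 4 groups of 3 arrays. The median intensity per array was 44 to 49.2. The 75th percentile was 346 on old B1 replicate 3 and 378 on old FO replicate 2, against 400 to 412 on the other arrays, and these arrays had the lowest limma weights (0.106 and 0.332). Counts of members and of all pathway genes without both arrays are given beside the main counts. Values without them are given for some genes only, so a gene without such a value may also have moved.

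The summed intensities of marker genes followed the labels of the groups, while single genes did not all do so. The summed intensity of 6 genes known in age-associated B cells was 11277 to 14660 in old ABC, against at most 2069 on any other array. The sum of 7 B1 genes was 9876 to 13610 in old B1 and 9983 to 10399 in young B1, with 6709 to 7308 in old ABC and 678 to 1275 in old FO. The sum of 4 follicular genes was 16453 to 18366 in old FO, against at most 4564 elsewhere, and that of 8 genes of B cell identity was 48786 to 56170 over all arrays. Of the B1 genes, Spn was called higher in old ABC than in old B1, and Sox5 and Ctla4 lower. Of the age-associated genes, Itgam and Cd80 were called higher in old B1 than in old FO, and Tbx21, Fas and Cxcr3 lower. Of the identity genes, Pax5, Ebf1 and Cd22 were called lower in old B1 than in old FO, and Blk higher.

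Old ABC set against old FO cells compares the age-associated cells with the most common B cell of the spleen at that age. Of the 10 members 4 were higher in old ABC (Tlr2, Tlr3, Tlr12 and Unc93b1) and 0 were lower, where 8.4% of all genes were called (6.2% higher and 2.2% lower). The groups did not overlap for 6 of 10 members, against 28.8% of all genes. The median difference of the members was 0.49, against -0.03 over all genes. Of the 17 probe sets 6 were higher and 0 lower, where 6.13% of all probe sets were called.

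Old ABC set against old B1 cells showed 4 of 10 members higher (Tlr1, Tlr3, Tlr12 and Unc93b1) and 0 lower, where 11.2% of all genes were called (6.38% higher and 4.79% lower). The groups did not overlap for 7 of 10, against 28.8% of all genes, and the median difference was 0.52, against 0.02 over all genes. Of the probe sets, 6 of 17 were higher, against 8.48% of all probe sets called.

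Old B1 set against old FO cells showed 1 member higher (Tlr2) and 2 lower (Tlr1 and Tlr12), where 14.3% of all genes were called (7.68% higher and 6.65% lower). The groups did not overlap for 4 of 10, against 28.9% of all genes, and the median difference was 0.07, against -0.04. Of the probe sets 1 was higher and 2 were lower, where 11.5% were called. The comparisons share arrays, so their results are not independent of each other. Without old B1 replicate 3 and old FO replicate 2, the same genes were called as with them, 4 of 4, 4 of 4 and 3 of 3.

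**Figure D1:**
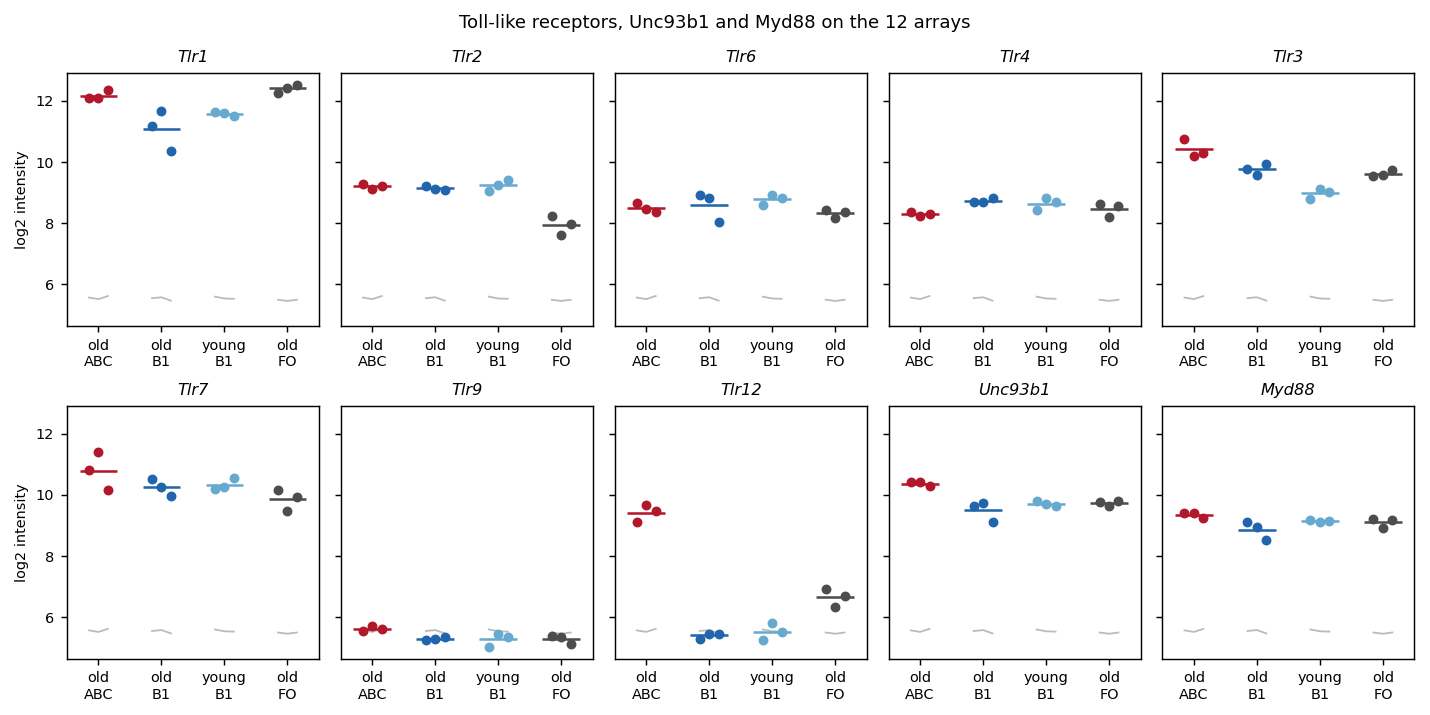
Log2 intensity of the representative probe set of each member (vertical axis) on the 3 arrays of old ABC, old B1, young B1 and old FO (horizontal axis), with points for arrays, bars for group means and grey lines for the median of each array. Tlr12 stands at 9.13 to 9.68 in old ABC, above all other groups, and Tlr2 is lower in old FO than in the other groups.

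Among the surface receptors, Tlr2 separated old FO from the other groups. Its log2 intensity was 9.29, 9.12 and 9.21 in old ABC and 9.22, 9.12 and 9.10 in old B1, with 9.06, 9.25 and 9.40 in young B1 and 8.23, 7.61 and 7.97 in old FO. The old FO arrays were all lower than every other array, and the 3 other groups overlapped. Tlr2 was higher in old ABC than in old FO by 1.27 ± 0.15 (2.41-fold, adjusted p = 0.000651). It was higher in old B1 than in old FO by 1.21 ± 0.15 (2.31-fold, adjusted p = 0.000622). Old ABC and old B1 differed by 0.06 (95% interval -0.28 to 0.41). Both calls held in all 27 alternative settings, at 1.10 to 1.41 against old FO for ABC and 1.04 to 1.37 for B1.

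Tlr1, a partner of Tlr2 in binding triacylated lipopeptides, was lower in the peritoneal cells. It stood at 12.09, 12.08 and 12.36 in old ABC, and at 11.17, 11.68 and 10.36 in old B1. Young B1 had 11.64, 11.59 and 11.51, and old FO had 12.27, 12.42 and 12.53. Every B1 array was below every spleen array, old and young B1 overlapped, and old ABC overlapped old FO. Tlr1 fell by 1.33 ± 0.26 in old B1 against old FO (adjusted p = 0.00818). It was higher in old ABC than in old B1 by 1.11 ± 0.26 (2.15-fold, adjusted p = 0.0271), and the difference between old ABC and old FO was -0.23 (adjusted p = 0.796).

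Old B1 replicate 3 had the lowest Tlr1 of all arrays. Without it and old FO replicate 2, Tlr1 was -0.97 in old B1 against old FO (adjusted p = 0.00629) and 0.75 in old ABC against old B1 (adjusted p = 0.0177). The call against old ABC was lost when old B1 replicate 1 or any 1 old ABC array was left out (adjusted p = 0.055 to 0.0898). In fits of the compared groups alone, the adjusted p was 0.185 against old ABC and 0.0994 against old FO.

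Tlr6, the other partner of Tlr2, lies next to Tlr1 in the mouse genome (RefSeq, GRCm38.p6). It stood at 8.65, 8.45 and 8.37 in old ABC, 8.93, 8.82 and 8.05 in old B1, 8.60, 8.93 and 8.81 in young B1, and 8.44, 8.18 and 8.36 in old FO. Each group overlapped its neighbour in level, and Tlr6 was called in none of the 4 comparisons (differences of -0.18 to 0.27, adjusted p = 0.5 or above). When old B1 replicate 3 was left out, old B1 exceeded old FO by 0.55 (adjusted p = 0.0253).

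Tlr4, the lipopolysaccharide receptor, had 4 probe sets, and none was called in any comparison. The brightest, 1418162_at, read 8.37, 8.23 and 8.30 in old ABC, 8.68, 8.68 and 8.83 in old B1, 8.43, 8.81 and 8.69 in young B1, and 8.63, 8.21 and 8.56 in old FO. Old ABC lay below both B1 groups without overlap, at -0.43 ± 0.14 against old B1 (adjusted p = 0.0968), and overlapped old FO. Of the others, 1418163_at ranged from 6.75 to 8.31. The probe set 1442827_at was under the median of its array on all 12 arrays, and 1430695_at on 11, with 6.10 on old B1 replicate 3 alone. The 4 probe sets did not follow each other over the 12 arrays (Pearson r from -0.254 to 0.562, on arrays that share groups).

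Among the endosomal receptors, Tlr12 differed most between the groups. Its brightest probe set, 1438329_at, read 9.13, 9.68 and 9.46 in old ABC. It read 5.30, 5.46 and 5.46 in old B1 and 5.25, 5.82 and 5.52 in young B1, with 6.91, 6.33 and 6.70 in old FO. Old ABC was above old FO and old FO above both B1 groups, with no overlap at either step, while old and young B1 overlapped near the median of all probe sets.

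Tlr12 was higher in old ABC than in old FO by 2.78 ± 0.20 (6.86-fold, adjusted p = 2.32e-05) and than in old B1 by 4.02 ± 0.20 (16.2-fold, adjusted p = 2.38e-06). It fell by 1.24 ± 0.20 in old B1 against old FO (adjusted p = 0.0024). These calls held in all 27 settings, and without both low arrays the differences were 2.62, 4.05 and -1.43. Tlr12 was under the median of the array on 5 arrays, and how much of the signal of B1 cells is background was not tested. The other probe set of Tlr12, 1437931_at, was at 4.61 to 5.25, under the median on all 12 arrays, and was not called. With the mean of both probe sets, the differences were smaller, at 1.35 against old FO and 2.08 against old B1.

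The promoters of Tlr12 and Tlr2, the members whose calls held in every setting, are shown with a binding motif of ETS factors, the family of Spi1 and Spib, which act in B and myeloid cells. Both run from 250 bases before to 50 bases after the start of the RNA (RefSeq, GRCm38.p6, minus strand), at chr4:128618570-128618869 for Tlr12 and at chr3:83841559-83841858 for Tlr2. Capitals mark GGAAGT on either strand, read as ACTTCC on the other.
Tlr12: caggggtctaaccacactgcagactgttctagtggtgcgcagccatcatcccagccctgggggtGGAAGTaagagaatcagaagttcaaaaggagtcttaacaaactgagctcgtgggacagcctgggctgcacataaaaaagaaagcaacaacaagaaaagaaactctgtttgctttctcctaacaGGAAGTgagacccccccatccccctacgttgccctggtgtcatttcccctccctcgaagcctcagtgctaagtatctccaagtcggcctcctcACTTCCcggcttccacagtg
Tlr2: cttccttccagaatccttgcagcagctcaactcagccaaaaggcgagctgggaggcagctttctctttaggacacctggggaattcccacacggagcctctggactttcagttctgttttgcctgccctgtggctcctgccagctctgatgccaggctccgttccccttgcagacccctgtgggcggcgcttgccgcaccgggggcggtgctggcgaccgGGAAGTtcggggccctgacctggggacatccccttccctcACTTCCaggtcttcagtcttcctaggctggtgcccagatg
Tlr12 held 3 matches, with first bases at -186, -63 and 31 from the start, and Tlr2 held 2, at -30 and 11. Of 32817 mouse promoters of that length, 23.8% held at least 1 match, 4.18% held 2 or more and 0.558% held 3 or more. Among the 7 members with a promoter in the table, 6 held the motif (Tlr1, Tlr2, Tlr6, Tlr9, Tlr12 and Myd88), in 7 of their 9 promoters. A kappa B motif, GGG and CC with any 5 bases between them, was found in 4 of the 9 promoters (Tlr2, Tlr3, Tlr6 and Tlr12) and in 50.8% of all. An interferon response motif, a pair of GAAA with any 2 bases between them, was found in 2 of the 9 (Tlr6 and Myd88) and in 3.43% of all. A T-box motif, AGGTGTGA, was found among these only in Myd88, and in 1.27% of all promoters. Motifs were searched on both strands, and overlapping matches were counted. Such a match describes the letters of the window and is not a measured site.

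Tlr3, the receptor of double-stranded RNA, was highest in old ABC. Its brightest probe set, 1422782_s_at, read 10.74, 10.19 and 10.31 in old ABC and 9.76, 9.59 and 9.94 in old B1. It read 8.80, 9.13 and 9.03 in young B1 and 9.54, 9.57 and 9.73 in old FO. Old ABC lay above all other groups, old B1 overlapped old FO, and young B1 lay below all 3 old groups. The suffix of this probe set marks that its probes can match more than 1 transcript. On 1422781_at, the other probe set, young B1 overlapped old B1.

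Tlr3 was higher in old ABC than in old FO by 0.80 ± 0.16 (1.74-fold, adjusted p = 0.0144) and than in old B1 by 0.65 ± 0.16 (1.57-fold, adjusted p = 0.0329). The dimmer probe set, 1422781_at, was called in the same direction, at 1.06 ± 0.26 (adjusted p = 0.0349) and 1.08 ± 0.26 (adjusted p = 0.0262). On 1422782_s_at the call against old FO was lost without old FO replicate 1 (adjusted p = 0.0614). The call against old B1 was lost with repeated quantile normalization (adjusted p = 0.0517), median centring (0.0594) and cyclic loess (0.0841), and in the fit of old ABC and old B1 alone (0.166). It was also lost without any 1 of 5 arrays (adjusted p = 0.0545 to 0.109): old ABC replicates 1 and 3, old B1 replicates 1 and 2, and young B1 replicate 3. On 1422781_at the call against old FO was lost in 9 of the 12 fits without 1 array (adjusted p = 0.05 to 0.132), and that against old B1 in 3 of 12 (0.0565 to 0.101) and in the fit of old ABC and old B1 alone (0.119).

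Tlr7, the receptor of single-stranded RNA, had 3 probe sets, all with their highest mean in old ABC, and only 1 of them was called. The probe set 1422010_at read 10.98, 11.04 and 10.37 in old ABC and 10.35, 9.84 and 9.91 in old B1. It read 10.09, 10.28 and 10.21 in young B1 and 10.16, 9.70 and 9.80 in old FO. Old ABC did not overlap the others on it, although its lowest array (10.37) came close to the highest of old B1 (10.35), and the other groups overlapped. This probe set was higher in old ABC than in old FO by 0.91 ± 0.21 (1.88-fold, adjusted p = 0.0256) and than in old B1 by 0.77 ± 0.21 (1.70-fold, adjusted p = 0.0465).

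The brightest probe set of Tlr7, 1449640_at, spread more within old ABC. It read 10.80, 11.41 and 10.17 in old ABC, 10.51, 10.25 and 9.97 in old B1, 10.20, 10.26 and 10.54 in young B1, and 10.17, 9.46 and 9.92 in old FO. Old ABC replicate 3 was level with the highest old FO array. The difference from old FO was 0.94 ± 0.30 (95% interval 0.29 to 1.60, adjusted p = 0.107) and that from old B1 was 0.55 ± 0.30 (-0.10 to 1.21, adjusted p = 0.336), neither called.

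The last probe set of Tlr7, 1419848_x_at, whose suffix marks probes that can bind unrelated transcripts, read 10.59, 11.26 and 9.94 in old ABC. It read 10.28, 10.02 and 9.81 in old B1, 9.99, 9.96 and 10.28 in young B1, and 9.88, 9.22 and 9.67 in old FO. Its difference from old FO was 1.0 ± 0.30 (adjusted p = 0.0862) and that from old B1 was 0.56 (adjusted p = 0.329). It followed 1449640_at almost exactly over the 12 arrays (Pearson r = 0.997), and 1422010_at followed them less closely (0.888 and 0.891), on arrays that share groups and source.

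The Tlr7 call depended on the arrays and on the settings. On 1422010_at the call against old FO was lost without old ABC replicate 1 or 2 or old FO replicate 2 or 3 (adjusted p = 0.0883 to 0.104), and the call against old B1 was lost in 9 of 12 such fits. The call against old B1 was also lost with cyclic loess (adjusted p = 0.0514), median centring (0.071), the 75th percentile as covariate (0.0981) and the replicate block (0.0521). In fits of the compared groups alone, the adjusted p was 0.194 against old B1 and 0.0658 against old FO. Without both low arrays the difference from old B1 on 1422010_at was 0.70 (adjusted p = 0.0829), and that from old FO was 0.82 (adjusted p = 0.0494). On 1449640_at old ABC was called higher than old FO without old ABC replicate 3 (1.26, adjusted p = 0.0271). Tlr8, which lies next to Tlr7 in the mouse genome, was under the median on every array.

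**Figure D2:**
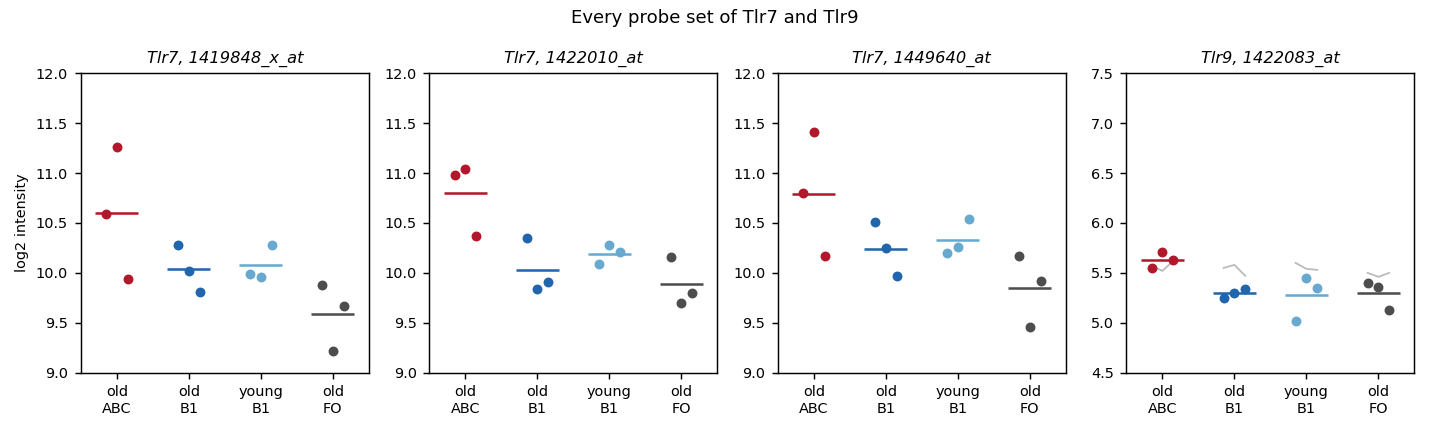
Log2 intensity (vertical axis) of the 3 probe sets of Tlr7 and the 1 probe set of Tlr9 on each array of old ABC, old B1, young B1 and old FO (horizontal axis), with bars for group means and a grey line for the array median where it falls in range. Old ABC has the highest mean on all 4, and old ABC replicate 3 is the lowest of its group on the Tlr7 probe sets.

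Tlr9, the receptor of CpG DNA, was measured at a low signal, close to the median of each array, by its 1 probe set, 1422083_at. It read 5.55, 5.71 and 5.63 in old ABC and 5.25, 5.30 and 5.34 in old B1, with 5.02, 5.45 and 5.35 in young B1 and 5.40, 5.36 and 5.13 in old FO. Old ABC lay above all other arrays and the other groups overlapped, but 10 of 12 values were under the median of their own array. The difference was 0.34 ± 0.13 from old FO (95% interval 0.05 to 0.63, adjusted p = 0.205) and 0.34 ± 0.13 from old B1 (adjusted p = 0.16), and neither was called. Old B1 and old FO differed by 0.00 (adjusted p = 0.996).

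Unc93b1, the chaperone, was highest in old ABC. It stood at 10.41, 10.41 and 10.28 in old ABC, 9.63, 9.74 and 9.10 in old B1, 9.80, 9.71 and 9.63 in young B1, and 9.77, 9.64 and 9.79 in old FO. Every old ABC array was above every other array, and the other groups overlapped. Unc93b1 was higher in old ABC than in old B1 by 0.88 ± 0.15 (1.84-fold, adjusted p = 0.0055) and than in old FO by 0.64 ± 0.15 (1.55-fold, adjusted p = 0.0365).

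The difference of Unc93b1 from old FO kept its size, at 0.55 to 0.68 in all 27 settings, but its call was lost in 9 of the 12 fits that left out 1 array. These were the fits without any 1 array of old ABC, old FO or young B1 (adjusted p = 0.0568 to 0.119). Without both low arrays it was 0.59 (adjusted p = 0.00498), and the difference from old B1 was 0.68 (adjusted p = 0.00202). The call against old B1 was lost in the fit of old ABC and old B1 alone (adjusted p = 0.0832).

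Myd88, the adaptor, was not called in any comparison. It stood at 9.41, 9.40 and 9.25 in old ABC, 9.11, 8.95 and 8.52 in old B1, 9.19, 9.13 and 9.16 in young B1, and 9.20, 8.93 and 9.19 in old FO. Old ABC lay above the other groups without overlap, by 0.25 against old FO (adjusted p = 0.505) and by 0.49 ± 0.15 against old B1 (adjusted p = 0.0773). Without old B1 replicate 1 the difference from old B1 was 0.61 (adjusted p = 0.04). Without both low arrays it was smaller, at 0.32 (adjusted p = 0.0732).

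**Figure D3:**
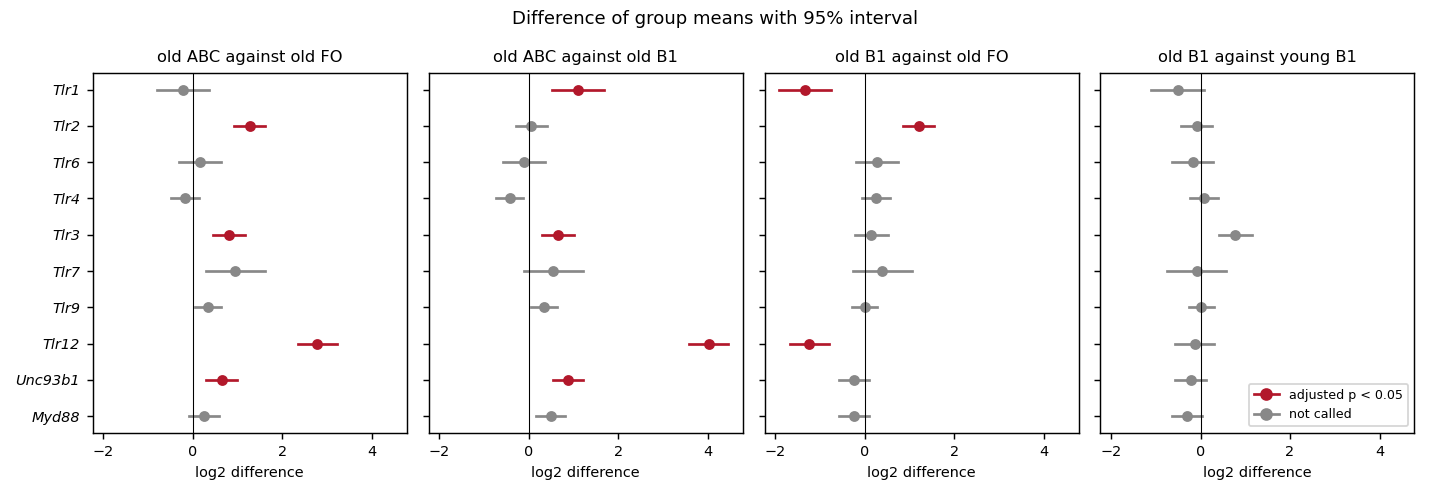
Log2 difference of group means (horizontal axis) for the 10 members (vertical axis) in each comparison, with 95% intervals of the limma fit and red where the adjusted p was under 0.05. Tlr12 and Tlr2 have the largest called differences from old FO in old ABC, at 2.78 and 1.27.

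Old B1 set against young B1 cells compares the same peritoneal cell at different ages. None of the 10 members was called (0 of 10, limma), where 0.203% of all genes were called (0.104% higher and 0.0989% lower), and 1 had an unadjusted p under 0.05. Of the 17 probe sets 0 were called, where 0.151% of all probe sets were. The groups did not overlap for 2 of 10, against 13.9% of all genes. The member with the lowest p was Tlr3, on 1422782_s_at at 9.76, 9.59 and 9.94 in old B1, against 8.80, 9.13 and 9.03 in young B1. On that probe set the groups did not overlap, and the difference was 0.78 ± 0.16 (unadjusted p = 0.000655, adjusted p = 0.164). It was 0.68 to 0.87 there in other settings. On the other probe set of Tlr3, 1422781_at, the groups overlapped and the difference was 0.25 ± 0.26 (unadjusted p = 0.343, adjusted p = 0.776). The intervals of the other differences do not show that the ages are alike.

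The other genes of the pathway were taken as 6 lists of 57 genes, of which 50 had a probe set of a single symbol. Old ABC against old FO had 3 of these 50 higher and 1 lower, where 8.4% of all genes were called. Old ABC against old B1 had 6 higher and 0 lower, where 11.2% of all genes were called, and old B1 against old FO had 5 higher and 8 lower, where 14.3% were. Old B1 against young B1 had 0 called, with 3 at an unadjusted p under 0.05. The median differences were 0.07, 0.18, -0.07 and -0.06, against -0.03, 0.02, -0.04 and -0.01 over all genes. Without both low arrays, old ABC against old FO had 10 higher and 4 lower, old ABC against old B1 had 6 and 3, and old B1 against old FO had 8 and 9. Without them the calls over all 45037 probe sets were 5008, 5487 and 7176, against 2763, 3820 and 5167 with all arrays.

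**Figure D4:**
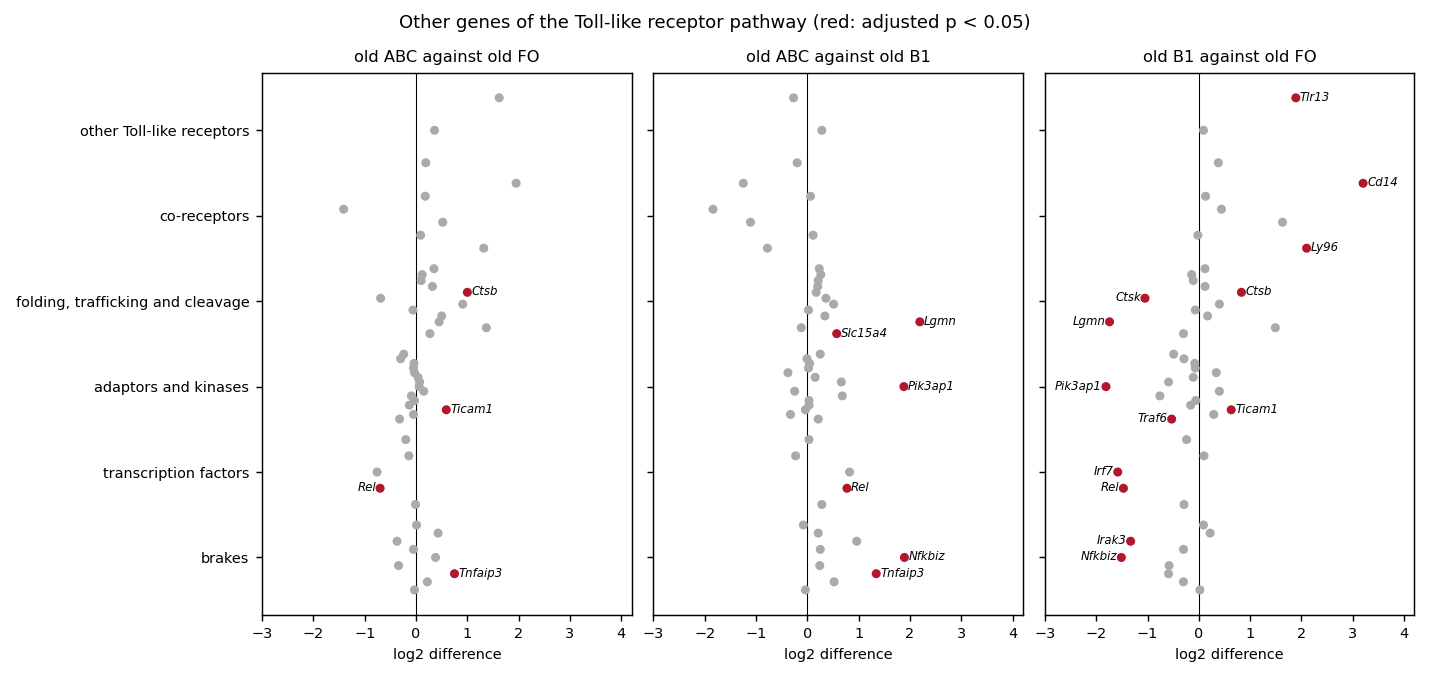
Log2 difference of group means (horizontal axis) of each measured gene of the 6 pathway lists (rows) in 3 comparisons, with red and a name where the adjusted p was under 0.05. In old ABC against old FO, 3 of 50 genes are called higher and 1 lower, where 6.2% of all genes are called higher and 2.2% lower.

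Of the other Toll-like receptors 3 of 4 were measured, and Tlr5 and Tlr8 were under the median on every array. Tlr13, which senses bacterial ribosomal RNA in mice, was higher in old B1 than in old FO by 1.89 ± 0.45 (adjusted p = 0.021). Of 6 co-receptors, 2 were higher in old B1 than in old FO. They were Cd14, which hands lipopolysaccharide to Tlr4 (3.20 ± 0.67, adjusted p = 0.0105), and Ly96, the partner of Tlr4 (2.10 ± 0.47, adjusted p = 0.0156). Cd14 read 6.77, 6.74 and 6.15 in old ABC, 8.80, 8.73 and 5.87 in old B1, 7.70, 7.96 and 8.68 in young B1, and 4.25, 4.43 and 5.12 in old FO, so that old B1 replicate 3 stood well below the rest of its group and still above old FO. Without both low arrays the difference of Cd14 was 4.08 (adjusted p = 8.52e-05) and that of Tlr13 was 2.49 (adjusted p = 0.00137). The calls of Tlr13 and Ly96 were lost without old FO replicate 1 or 3, and that of Tlr13 also without old B1 replicate 1 or 2. In the other comparisons 0 co-receptors were called, but without both low arrays 2 were higher in old ABC than in old FO, 2 were lower in old ABC than in old B1, and 3 were higher in old B1 than in old FO. Over all 45037 probe sets the calls in those fits were 5008, 5487 and 7176.

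Of 12 genes of folding, trafficking and cleavage of the endosomal receptors, 1 was higher in old ABC than in old FO. This was Ctsb, a lysosomal protease (1.0 ± 0.12, adjusted p = 0.000526). Lgmn, the asparagine endopeptidase that cuts endosomal receptors, was at 10.19, 10.18 and 10.26 in old ABC, 7.86, 7.52 and 8.69 in old B1, 8.10, 8.29 and 8.35 in young B1, and 9.89, 9.56 and 9.82 in old FO. The spleen groups lay above all B1 arrays. Lgmn was higher in old ABC than in old B1 by 2.19 ± 0.24 (adjusted p = 0.000363) and lower in old B1 than in old FO by -1.74 (adjusted p = 0.00112), and both calls held in all 27 settings. Slc15a4, an endolysosomal transporter needed for Tlr7 and Tlr9 responses, was higher in old ABC than in old B1 by 0.57 ± 0.10 (adjusted p = 0.00586). In old B1 against old FO, Ctsb was higher (0.83, adjusted p = 0.0012) and Ctsk, another protease, was lower (-1.05, adjusted p = 0.0116, lost without old FO replicate 1 or 3).

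Of 15 measured adaptors and kinases, Ticam1, the adaptor of Tlr3, was higher in old ABC than in old FO (0.59 ± 0.10, adjusted p = 0.00572) and in old B1 than in old FO (0.63, adjusted p = 0.00273). Pik3ap1, which couples Toll-like receptors to phosphoinositide signalling, was at 10.14, 10.58 and 10.35 in old ABC, 8.85, 8.70 and 7.89 in old B1, 8.66, 8.70 and 8.64 in young B1, and 10.29, 10.14 and 10.45 in old FO. As with Lgmn, the spleen groups lay above all B1 arrays. Pik3ap1 was higher in old ABC than in old B1 by 1.88 ± 0.23 (adjusted p = 0.000581) and lower in old B1 than in old FO by -1.81 (adjusted p = 0.000492). Traf6, the ubiquitin ligase below Myd88, was lower in old B1 than in old FO (-0.53, adjusted p = 0.00977), a call lost with cyclic loess (-0.34, adjusted p = 0.158).

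Of 5 measured transcription factors, Rel, an NF-kappa B subunit, was ordered across the groups. It read 9.52, 9.36 and 9.11 in old ABC, 8.87, 8.49 and 8.33 in old B1, 8.30, 8.24 and 8.12 in young B1, and 10.15, 9.90 and 10.05 in old FO. Old FO was highest, old ABC came next and the B1 groups were lowest, with no overlap between neighbours. Rel was -0.70 ± 0.16 in old ABC against old FO (adjusted p = 0.0253), 0.77 in old ABC against old B1 (adjusted p = 0.0128) and -1.47 in old B1 against old FO (adjusted p = 0.000189). The call against old FO in old ABC was lost without old ABC replicate 2 or 3 or old FO replicate 1 or 3, and that of old ABC against old B1 without old ABC replicate 1 or 2. Irf7, which drives interferon genes below Tlr7 and Tlr9, was lower in old B1 than in old FO (-1.58, adjusted p = 0.0223), a call lost without old FO replicate 1 or 3.

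Of 9 measured genes listed as brakes of the pathway, Tnfaip3, which encodes the deubiquitinase A20, was higher in old ABC. It was 1.34 above old B1 (adjusted p = 0.00114) in a call that held in all 27 settings, and 0.75 ± 0.18 above old FO (adjusted p = 0.035), a call lost in 9 of the 12 fits without 1 array. Nfkbiz, a nuclear I kappa B protein, was higher in old ABC than in old B1 (1.89 ± 0.43, adjusted p = 0.0223, lost without any 1 old ABC array). Its place on this list does not show that it acts as a brake in these cells. In old B1 against old FO, Nfkbiz (-1.51, adjusted p = 0.0495) and Irak3 (-1.33, adjusted p = 0.0273), a kinase-like inhibitor, were lower. The first of these calls was lost in 9 of the 12 fits without 1 array and without both low arrays (-1.24, adjusted p = 0.0524). The call of Irak3 was lost without old FO replicate 1 or 3, and without both low arrays its difference was -0.91 (adjusted p = 0.0048). Without both low arrays the difference of Nfkbiz between old ABC and old B1 was 1.41 (adjusted p = 0.0251).

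Genes that mark other cell types also differed between the groups, and in sorted cells measured in bulk a cell type's share and the RNA per cell cannot be told apart. The sum of 14 macrophage and monocyte markers was 15842 to 17691 in old ABC, 11926 to 29118 in old B1 and 15190 to 25653 in young B1, against 1153 to 3052 in old FO. Of these markers 10 were higher in old ABC than in old FO, and 13 in old B1 than in old FO. Of all genes 6.2% were called higher in old ABC than in old FO, and 7.68% in old B1 than in old FO. In old ABC against old B1, 6.38% of all genes were called higher and 4.79% lower. These shares also apply to the counts of the other marker lists below. Tlr2, Tlr13, Cd14 and Ly96 were also lowest in old FO, and the part of such cells in these results was not tested. In old B1 the sum was 29118, 28219 and 11926, beside Cd14 at 8.80, 8.73 and 5.87, Tlr13 at 7.02, 6.76 and 5.19, Ly96 at 10.24, 10.33 and 11.98, and Tlr2 at 9.22, 9.12 and 9.10. Cd14 is itself on the macrophage list. The array with the low sum, old B1 replicate 3, was low for Cd14 and Tlr13, high for Ly96 and level with its group for Tlr2. That array had the lowest limma weight (0.106). In young B1 the sums of 15190, 19539 and 25653 stood beside Tlr2 at 9.06, 9.25 and 9.40. Cd14 was there at 7.70, 7.96 and 8.68, Tlr13 at 5.36, 5.95 and 6.44, and Ly96 at 10.51, 10.18 and 10.37. For Tlr2, old ABC had sums of 17691, 15842 and 16633 beside 9.29, 9.12 and 9.21. Old FO had 1153, 1596 and 3052 beside 8.23, 7.61 and 7.97.

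The sum of 9 neutrophil markers was 35211, 20750 and 26357 in old ABC, against 200 to 401 in old B1, 303 to 1475 in young B1 and 452, 1999 and 9971 in old FO. Of the 9, 6 were higher in old ABC than in old FO and 9 than in old B1. The old ABC array with the lowest sum (20750) had the highest Tlr12 (9.68). In old FO the sums of 452, 1999 and 9971 stood beside Tlr12 of 6.91, 6.33 and 6.70. The part of neutrophil RNA in the values of Tlr12 was not tested. The sum of 8 conventional dendritic cell markers, a cell type known for Tlr3 and Tlr12 in mice, was 7146 to 7595 in old ABC, 5223 to 5284 in old B1, 5099 to 5898 in young B1 and 3068 to 4548 in old FO. Sirpa and Ccr7 make up most of this sum, at 7.72 to 12.12 and 9.07 to 11.72. Of these 8, 2 were higher in old ABC than in old FO (Itgae and Sirpa) and 3 than in old B1 (Zbtb46, Itgae and Ccr7), Xcr1 was under the median on every array, and their part in the results was not tested.

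The sum of 8 plasmacytoid dendritic cell markers was 11957 to 15166 in old ABC, 14113 to 15001 in old B1, 13375 to 14702 in young B1 and 12024 to 13565 in old FO, and overlapped between old ABC and each other group. Spib and Tcf4, which B cells also express, make up most of this sum, at 12.36 to 12.97 and 12.07 to 12.91. Of the 8, 2 were higher in old ABC than in old FO (Siglech and Tcf4) and 2 than in old B1 (Siglech and Cox6a2). Siglech, a defining marker of these cells, read 6.26, 5.99 and 5.86 in old ABC, 5.36, 5.73 and 5.25 in old B1, 5.22, 5.16 and 5.08 in young B1, and 5.36, 5.13 and 5.53 in old FO. Old ABC lay above every other array, and the part of such cells in the values of Tlr7, Tlr9 and Tlr12 was not tested.

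The sum of 7 mast cell markers was 223 to 846 in old ABC, 1957 to 4608 in old B1, 2110 to 9758 in young B1 and 102 to 120 in old FO. Of these 7, 3 were higher in old ABC than in old FO, 6 were higher in old B1 than in old FO and 4 were lower in old ABC than in old B1, and their part in the values of Tlr2, Cd14 and Ly96 was not tested. The sum of 7 NK cell markers was 1641 to 3498 in old ABC, 362 to 2118 in old B1, 913 to 1185 in young B1 and 924 to 1495 in old FO, with 2 of 7 higher in old ABC than in old FO and 3 than in old B1. The sum of 7 T cell markers was 2531 to 3123 in old ABC, 444 to 2460 in old B1, 1123 to 1485 in young B1 and 1045 to 2120 in old FO, with 1 of 7 higher in old ABC than in old FO and 1 than in old B1. The part of these cells in the results was not tested. Of all genes 6.2% were called higher in old ABC than in old FO and 6.38% than in old B1.

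**Figure D5:**
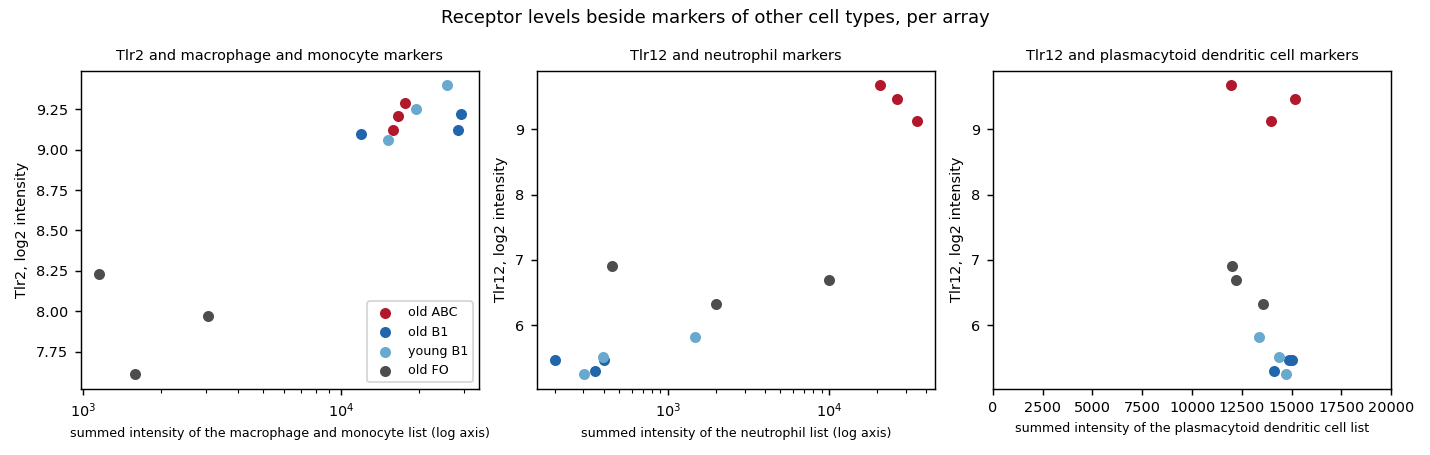
Log2 intensity of Tlr2 or Tlr12 (vertical axes) against the summed intensity of markers of another cell type (horizontal axes, log scale for macrophage and neutrophil lists) on each array, coloured by group. Old ABC has high neutrophil sums and high Tlr12, and the plasmacytoid sums, carried mostly by Spib and Tcf4, lie between 11957 and 15166 over the 4 groups.

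The genes whose level followed each receptor most closely over the 12 arrays are given as a description, since the arrays share groups and the correlations reflect them. For Tlr7 (1449640_at) they were Bloc1s5 (Pearson r = 0.954), Cmc1 (0.950), Cops9 (0.942), Commd4 (0.940) and Rit1 (0.933). For Tlr9, at its low signal, they were Apoa2 (0.897), Ext1 (0.888), a, the agouti gene (0.883), Haspin (0.878) and Dact1 (0.877). For Tlr12 they were Hebp1 (0.992), Ndnf (0.990), Padi2 (0.981), Spon1 (0.977) and Zfp365 (0.977). Hebp1, Ndnf and Zfp365 were each under the median of the array on 9 of 12 arrays, and Padi2 and Spon1 on 0. Among the genes closest to Tlr9, a was under it on 9 arrays, Dact1 on all 12 and the rest on 0.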

How the data were processed

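Flow-sorted B cells were profiled on 12 Affymetrix arrays, 3 in each of 4 groups. The deposited table holds linear intensity between 3 and 22068. Per the submitters' processing notes the authors used RMA and affy, but versions, background correction and genome build were not given in the sources used here. All 12 columns were used and 0 were left out. Of 45037 probe sets, 34945 had 1 gene symbol, 932 several and 9160 none, per the platform annotation.

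The log2 of each intensity was fitted by lmFit and eBayes of limma 3.58.1 under R 4.3.3, on all probe sets and all 12 arrays with 4 group means (8 residual and 2.31 prior degrees of freedom). P-values were adjusted by Benjamini-Hochberg over all probe sets within a comparison, without a filter on dim probe sets. The number of arrays limits the precision. The fit was tested on simulated data with known differences. The members and lists were chosen with earlier results of these data known. The text names all 10 members. Of up to 3 pathway genes with the lowest p per list and comparison, it names those that were called. Those not called are left out, except Tlr5 and Tlr8. It also names the 5 genes closest to Tlr7, Tlr9 and Tlr12 over the arrays, without predicted genes, clone names and immunoglobulin segments. Alternatives were other normalizations, limma settings, probe set rules, a block for the replicate number, fits on just the groups compared and leaving out each array in turn. Promoters are those of RefSeq (GRCm38.p6) for 7 of the 10 members, 9 in all. Tables and figures were made with Python 3.11.15 and matplotlib 3.10.9.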

Additional observations from a re-analysis of the deposited data

How the results depend on the processing

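The calls of Tlr12 and Tlr2 against old FO and of Tlr12 against old B1 held in all 27 settings. The number of members called in old ABC against old FO was 2 at an adjusted p under 0.01 and 2 to 4 when 1 array was left out, lowest without old FO replicate 1. Over all 45037 probe sets 1514 were called at that threshold and 1845 without old FO replicate 1. In old ABC against old B1 the number of members called was 2 at an adjusted p under 0.01, 1 in the fit of those groups alone, and 2 to 4 without 1 array. Over all probe sets the calls were 1872, 1431 and 2388 to 4384. In old B1 against old FO the number of members called was 3 to 4 without 1 array and 2 in the fit of those groups alone. Over all probe sets the calls were 3392 to 6192 and 2005. In old B1 against young B1 the number of members called was 0. Whether replicate numbers pair the samples was not established. Same-number correlations of the deviations from group means were -0.506 to 0.347, with 3 of 18 over 0.1 and 3 of 12 arrays closest to their own number. The highest correlation, 0.554, was between old B1 replicate 3 and old FO replicate 2. These low arrays also shift their group means, so such correlations cannot exclude pairing. With the replicate block 3, 2, 3 and 0 members were called. Over all probe sets the block gave 2296, 3092 and 4244 calls, and 30 calls between old and young B1, against 68. Array weights gave 6600, 6730, 8986 and 455 calls, and the fit without both low arrays, which were chosen from an earlier analysis of these data, gave 5008, 5487, 7176 and 282, against 2763, 3820, 5167 and 68. The cause was not tested. In fits of the compared groups alone, all pathway calls in old B1 against old FO other than Ctsb, Lgmn, Pik3ap1 and Rel were lost (adjusted p = 0.0603 to 0.17), as were those of Slc15a4, Rel and Nfkbiz in old ABC against old B1 (0.0838 to 0.116).

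A total of 30 values changed sign, none of them called in either fit. Ranges are those without 1 array. For old B1 against young B1, Tlr12 was 0.04 with cyclic loess and -0.27 to 0.02. Tlr2 was 0.01 with the 75th percentile as covariate and 0.03 with loess. Tlr4 was -0.02 to 0.16. Tlr6 was 0.08 with the percentile, 0.05 with array weights, 0.09 without both low arrays and -0.35 to 0.09. Tlr7 was 0.08 with the percentile, 0.01 with weights, 0.05 without both and -0.22 to 0.05. Tlr9 was -0.02 with the percentile, -0.04 with weights, 0.00 without both and -0.11 to 0.11. For old ABC against old B1, Tlr2 was -0.04 with the percentile, -0.05 with loess and 0.00 with repeated quantile normalization, and Tlr6 was -0.38 to 0.05. For old B1 against old FO, Tlr3 was -0.02 with the most variable probe set, and Tlr9 was 0.04 with weights, 0.14 with loess, 0.01 without both and -0.09 to 0.05. The remaining member values gave 9 calls gained, 33 lost and 1004 kept on their side. The signal of Tlr9 near the array median limits what its values can show.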
